A study of Homo sapiens with 8 samples.

Results

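The comparison described here is that of SW480 cells 72 h after transfection with a small interfering RNA (siRNA) against TCF7L2 and the same cells 48 h after it. SW480 is an established human colorectal cancer line. It takes in 4 of the 8 RNA sequencing libraries of the study, 2 replicates at each of these times, and both sides carry the TCF7L2 siRNA. The other 4 libraries are 2 at 24 h of the same siRNA and 2 of a negative control siRNA labelled 0 h. Their values enter the choice of genes tested, the scaling between libraries, the estimate of the spread and the time courses. Those at 24 h also enter the comparison of the last 24 h with the 24 h before. There is no control siRNA at 48 or 72 h, so a change between these times cannot be told apart from one that comes with time in culture after any transfection. Whether the 2 replicates of a time came from separate cultures is not stated, and a p-value then covers no more than the spread between these libraries, possibly a technical one. The treatment protocol counts 3 treated replicates, 1 more than the libraries listed for each time.

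TCF7L2, also called TCF4, is a DNA-binding factor of the TCF/LEF family. It recruits beta-catenin to Wnt target genes, and in colorectal cancers that have lost APC function, as SW480 has, that pathway is active without a Wnt signal. Among gene lists with 10 or more members tested, the one with the largest share of called members between 48 and 72 h was that of another factor, ATF4, whose translation rises when cells run short of amino acids or carry misfolded proteins in the endoplasmic reticulum (ER). It pairs with C/EBP and related factors to switch on amino acid transporters, serine and asparagine synthesis enzymes and stress regulators such as TRIB3 and DDIT3. The gene lists were chosen with earlier results of these data known, so their ranking is a description and no independent support.

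Levels are TPM, a length-normalised share of the transcripts in a library, for 18656 gene symbols. The 11894 genes that reached 1 TPM in 2 or more of the 8 libraries were tested. A change is the difference of log2(TPM + 1) between times, with the standard error (SE) of a limma model over all 8 libraries, and on this scale the changes of low genes are understated. A gene is called where its adjusted p (limma, Benjamini-Hochberg over all genes tested, two-sided) is under 0.05. Each change is given on the TPM as deposited and, as the scaled value, after median-ratio scaling. In that scaling 1 factor per library brings the median gene to the same level. As deposited, the model took the spread of a gene from the trend over all genes alone. The SE and the very small adjusted p as deposited therefore do not reflect how far the libraries of that gene lay apart. After scaling the spread of each gene enters as well. Sequencing depth cannot be read from TPM and is unknown.

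One library stands apart from the rest. The TPM of the listed genes summed to 352455.7 in the second 72 h library and to between 448107.5 and 485601.5 in the other 7. Its median-ratio factor was 0.8001, against 1.03 in the first 72 h library and 1.047 and 1.058 in the 48 h libraries. On the values as deposited the median gene therefore differed by -0.17 between 72 and 48 h, and after scaling by 0.018. The number of genes listed at 1 TPM or more was 11421 in this library and 11717 in the first 72 h library, and their log levels correlated across genes at r = 0.992, against 0.9954 for the 48 h pair.

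As deposited, 3211 of 11894 genes were called, or 27.0%. Of these 590 (4.96% of genes tested) were higher at 72 h and 2621 (22.0%) lower. After scaling 4751 (39.9%) were called, 2439 (20.5%) higher and 2312 (19.4%) lower, so the share of higher calls went from 18.37% to 51.34% of the calls with the scale. Both scales called 578 genes higher and 2188 lower, and no gene was called in opposite directions. Changes past 2-fold on the log2(TPM + 1) scale were few, 44 higher and 140 lower as deposited and 83 higher and 68 lower after scaling. The calls numbered 6856 without the first 72 h library and 955 without the second 48 h library, both as deposited. After scaling, leaving out a 48 h or 72 h library gave 3177 to 4357.

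**Figure D1:**
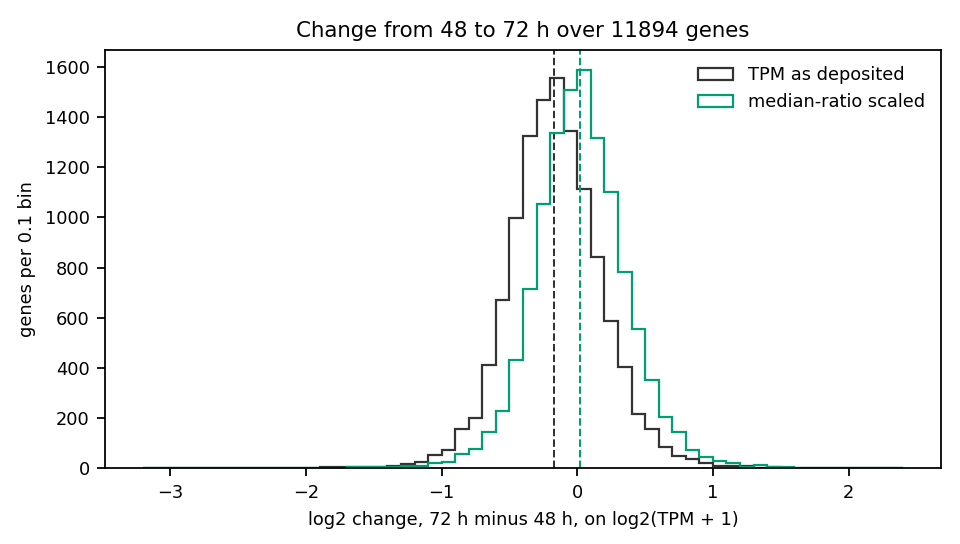
Number of genes (y axis, per bin of 0.1) at each log2 change from 48 to 72 h (x axis) over the 11894 genes tested, for TPM as deposited (black) and after median-ratio scaling (green), with dashed lines at the medians of -0.17 and 0.018. The scaled values lie to the right of those as deposited, and few genes on either scale lie past 1 in size.

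TCF7L2 itself, the gene targeted by the siRNA, did not differ between the 2 times beyond the error. It stood at 4.92 and 4.07 TPM at 48 h and at 4.07 and 3.53 TPM at 72 h, against 6.86 and 7.47 TPM with the control siRNA at 0 h and 5.82 and 5.05 TPM at 24 h. The 48 and 72 h libraries touched at 4.07 TPM. The change was -0.19 ± 0.17 (SE, adjusted p = 0.398) and -0.02 after scaling (adjusted p = 0.893). TCF7L2 lies at chr10:112950250-113167678 on the plus strand (GRCh38, GENCODE annotation).

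Of its relatives, LEF1 rose. LEF1, a factor of the same family and itself a Wnt target, stood at 33.35 and 29.60 TPM at 48 h and at 56.18 and 50.40 TPM at 72 h. Both 72 h libraries lay above both 48 h libraries, with a change of 0.74 ± 0.16 (adjusted p = 7.8e-05) and 0.95 after scaling. TCF7 stood at 8.68 and 8.30 TPM and then at 7.22 and 7.50 TPM, a change of -0.18 as deposited (adjusted p = 0.419) that turned to 0.01 after scaling. TCF7L1 was under 1 TPM in every library and was not tested.

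Wnt feedback and target genes moved both ways. Of 41 members tested, 5 (12.2%) were higher and 11 (26.83%) lower as deposited, and 14 (34.15%) higher and 10 (24.39%) lower after scaling. Among all genes tested 4.96% were higher and 22.0% lower as deposited, and 20.5% and 19.4% after scaling. The median change of the Wnt members was -0.18 as deposited and 0.02 after scaling, close to the medians of all genes. CD44, a hyaluronan receptor, rose the most, from 45.63 and 53.27 TPM to 113.87 and 116.83 TPM (1.21 ± 0.16, scaled 1.42). DKK4, a secreted Wnt inhibitor, fell from 71.21 and 71.30 TPM to 37.14 and 23.70 TPM (-1.24 ± 0.16, scaled -1.03). DKK1, another secreted Wnt inhibitor, went the other way, from 23.73 and 24.19 TPM to 44.47 and 32.53 TPM (0.65 ± 0.16, scaled 0.85). CEMIP, which takes part in hyaluronan breakdown, fell from 2.71 and 3.30 TPM to 0.96 and 0.62 TPM (-1.16 ± 0.17, scaled -1.05). MYC fell from 327.62 and 330.58 TPM to 254.58 and 210.35 TPM (-0.51 ± 0.17, adjusted p = 0.0155, scaled -0.29). CCND1, which encodes cyclin D1, fell from 117.96 and 117.53 TPM to 86.74 and 69.38 TPM (-0.60 ± 0.16, adjusted p = 0.0025, scaled -0.39). DKK1, MYC and CCND1 are singled out here after their values were seen. As deposited, the call of CCND1 was lost without either 48 h library and that of MYC without any one library other than those at 72 h, and both held after scaling. As deposited, the count of lower members was 23 without the first 72 h library and 4 without the second 48 h library, and after scaling it was 9 to 10 with any 48 h or 72 h library left out.

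The ATF4 target genes fell together, on a list chosen with earlier results of these data known. Its counts are therefore a description and no independent support. Of 42 members tested, 38 (90.48%) were lower at 72 h as deposited and 39 (92.86%) after scaling, where 22.0% and 19.4% of all genes were. No member was called higher on either scale, and the median of the changes was -0.88 and, after scaling, -0.68. Leaving out any one of the 8 libraries left 29 to 40 members lower as deposited, and leaving out one of the 4 libraries compared left 37 to 39 after scaling.

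For some of these genes the promoter holds the sequence to which ATF4 and C/EBP factors are known to bind together. The windows searched run from 250 bases before to 50 bases after each start site in RefSeq (GRCh38.p14), and the motif was TGATGNAA on either strand. It was present in 1270 of 35116 windows in the table (3.62%), and in a window of 248 of the 9631 tested genes that have one (2.58%). Of the 33 ATF4 targets with a window, 10 (30.3%) held it. Genes can be known as ATF4 targets because such a site was found in their promoters. A larger share on this list could thus be fixed in advance and is no evidence about these libraries. The stretches below show it in capitals for the 7 of these 10 in which it lies before the start site with room around it, read in the direction of the gene, so that in CHAC1 and FGF21 the capitals are the motif on the other strand.
ATF3 (chr1:212565205-212565234, plus strand): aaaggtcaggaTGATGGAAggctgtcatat
CHAC1 (chr15:40953251-40953280, plus strand): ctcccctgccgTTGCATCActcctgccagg
CEBPG (chr19:33374060-33374089, plus strand): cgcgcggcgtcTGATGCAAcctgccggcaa
ASNS (chr7:97872458-97872487, minus strand): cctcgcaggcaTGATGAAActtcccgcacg
SLC1A5 (chr19:46784893-46784922, minus strand): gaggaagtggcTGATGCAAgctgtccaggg
FGF21 (chr19:48755459-48755488, plus strand): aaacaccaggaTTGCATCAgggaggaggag
JDP2 (chr14:75427995-75428021, plus strand): atagccggggcTGATGCAAcccgtccc

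The first 6 of these genes fell from 48 to 72 h and JDP2 was not called on either scale, as the values below show. The stretch before FGF21 is also the stretch before FUT1, which is read from the opposite strand and fell as well. S100P, another of the largest falls, holds the motif in its window too. Among the largest rises and falls and the TCF/LEF family, 25 genes have a window. Of these only 3 (12%) hold the motif, namely FGF21, FUT1 and S100P. A match is a description of the letters and does not show binding. The core letters of TCF/LEF sites, CTTTGAA or CTTTGAT, were in a window of 3 of 27 Wnt genes (11.1%: SP5, DKK1 and MMP7) and of 5.79% of the tested genes with a window.

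Among the regulators on the ATF4 list, TRIB3, a pseudokinase that restrains ATF4 and AKT signalling, fell the most of all genes named. It stood at 201.19 and 214.60 TPM at 48 h and at 32.40 and 23.65 TPM at 72 h, a change of -2.86 ± 0.16 (adjusted p = 8.89e-64) and -2.66 after scaling (adjusted p = 6.12e-09). The 72 h mean was 7.42-fold lower. TRIB3 lies at chr20:362835-397559 on the plus strand. DDIT4, an inhibitor of mTORC1, fell from 80.37 and 76.22 TPM to 19.55 and 15.05 TPM (-2.13 ± 0.16, scaled -1.92). The stress factors ATF5, CEBPB, CEBPG and DDIT3 changed by -1.60, -1.54, -1.34 and -1.28 as deposited and by -1.40, -1.35, -1.13 and -1.08 after scaling. CEBPG, one of the partners with which ATF4 binds, went from 62.22 and 64.16 TPM to 28.59 and 20.73 TPM. The ATF4 transcript itself went from 386.42 and 404.26 TPM to 263.99 and 204.24 TPM (-0.76 ± 0.17, adjusted p = 1.34e-04, scaled -0.55). ATF3, a stress-induced repressor, went from 6.40 and 5.83 TPM to 3.94 and 2.72 TPM (-0.73 ± 0.16, scaled -0.56). In each of these genes the 72 h libraries lay below the 48 h libraries, and none of these calls was lost with 1 library left out on either scale.

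Secreted factors on the list fell as well. FGF21, a hormone made under metabolic stress, fell from 7.13 and 6.75 TPM to 1.15 and 0.76 TPM, a change of -2.03 ± 0.16 (adjusted p = 1.24e-31, scaled -1.90). GDF15, a stress-induced member of the TGF-beta family, fell from 13.70 and 14.48 TPM to 4.37 and 2.51 TPM (-1.80 ± 0.16, scaled -1.63). INHBE, which encodes an activin subunit, is not on the list and fell from 30.59 and 31.77 TPM to 10.38 and 7.09 TPM (-1.75 ± 0.16, scaled -1.55).

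The serine and one-carbon enzymes of the list were each lower by about the size of the list's median. PHGDH, the first enzyme of serine synthesis, went from 60.06 and 60.33 TPM to 32.72 and 24.21 TPM (-1.07 ± 0.16, scaled -0.86). The changes of PSAT1, PSPH, SHMT2 and MTHFD2, further enzymes of serine and one-carbon metabolism, were -1.17, -0.91, -0.81 and -1.10 as deposited and -0.96, -0.70, -0.59 and -0.89 after scaling. ASNS, which makes asparagine, went from 394.41 and 415.68 TPM to 236.51 and 183.19 TPM (-0.96 ± 0.17, scaled -0.74). CHAC1, which degrades glutathione, went from 15.93 and 15.91 TPM to 8.90 and 7.09 TPM (-0.92 ± 0.16, scaled -0.73).

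Amino acid transporters had changes nearer 0. SLC1A5, a glutamine carrier, went from 988.88 and 977.48 TPM to 681.21 and 562.72 TPM (-0.67 ± 0.18, adjusted p = 0.00181, scaled -0.45). SLC3A2 and SLC7A5, the 2 chains of the carrier of large neutral amino acids, changed by -0.76 and -0.49 as deposited and by -0.55 and -0.28 after scaling. As deposited, the call of SLC1A5 was lost without either 48 h library and that of SLC7A5 without any one library other than those at 72 h. SLC7A11, the cystine carrier, went from 21.32 and 22.83 TPM to 18.34 and 14.98 TPM and was not called (-0.39 ± 0.16, adjusted p = 0.0527, and -0.19 with adjusted p = 0.0739 after scaling). SLC38A2 was called after scaling only (-0.18, adjusted p = 0.00987). VLDLR and JDP2 were at -0.10 and -0.09 as deposited and at 0.03 and 0.11 after scaling, and neither was called. The plot of the ATF4 target genes gives every member tested.

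**Figure D2:**
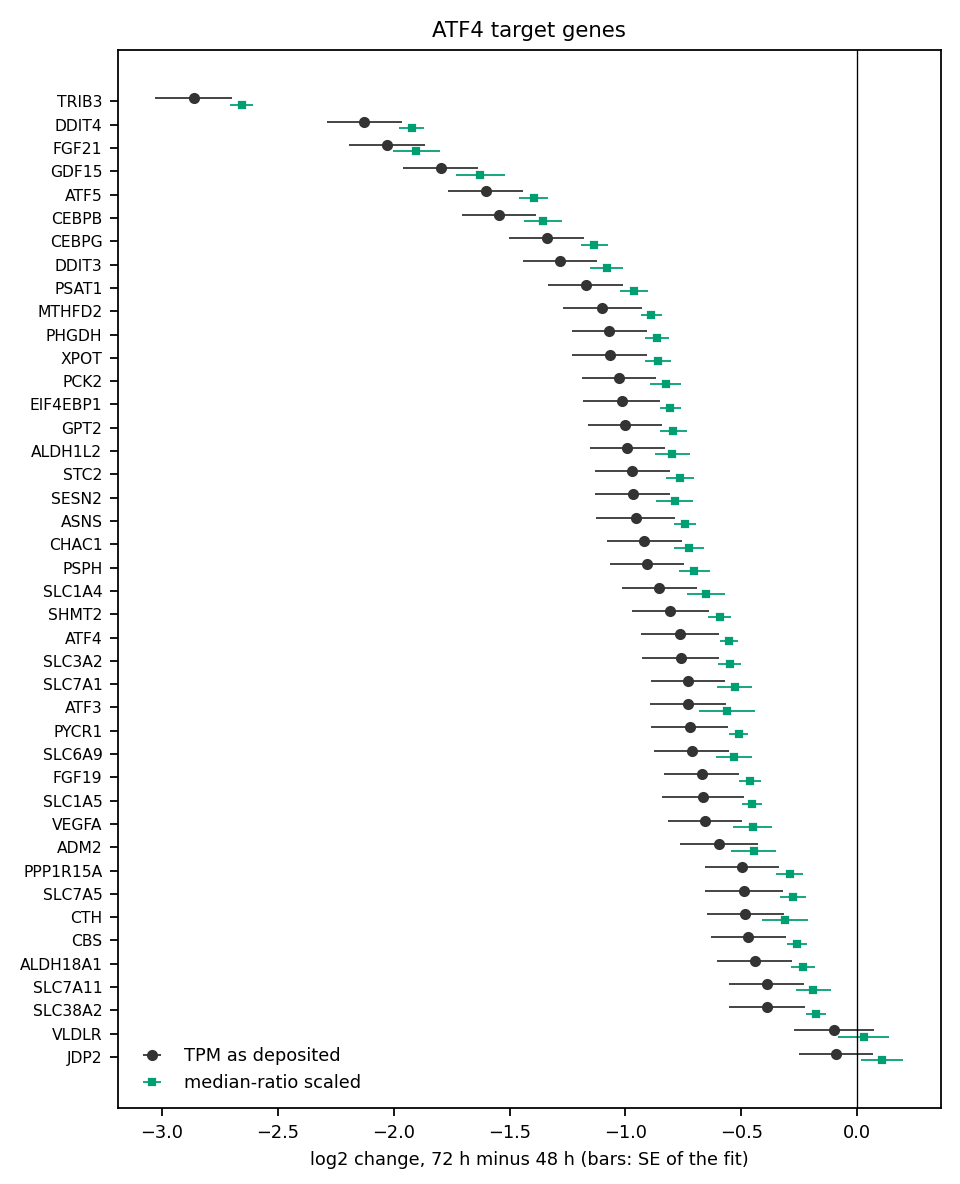
Log2 change from 48 to 72 h (x axis) of the 42 ATF4 target genes tested (y axis), as deposited (black circles) and after median-ratio scaling (green squares), with bars for the SE of the fit. TRIB3 at -2.86 is the lowest, 38 members were called lower as deposited, and VLDLR and JDP2 lie near 0 on both scales.

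ER chaperones and genes of the XBP1 and ATF6 arms of the ER stress response did not move as one group. Of 29 tested, 8 were lower (27.59%) and 1 higher as deposited, and 7 lower (24.14%) and 5 higher after scaling. The shares of all genes lower were near these, at 22.0% as deposited and 19.4% after scaling. XBP1, the factor of one arm, fell from 91.64 and 99.39 TPM to 58.46 and 45.59 TPM (-0.87 ± 0.16, scaled -0.66). ERN1, the sensor that activates XBP1, fell from 5.09 and 4.13 TPM to 2.91 and 1.62 TPM (-0.80 ± 0.17, scaled -0.66). SEL1L, of the ER degradation machinery, fell from 26.38 and 30.10 TPM to 20.38 and 15.17 TPM (-0.65 ± 0.16, scaled -0.45). DERL3, of the same machinery, rose from 1.04 and 1.04 TPM to 2.31 and 2.36 TPM (0.71 ± 0.17, scaled 0.85). As deposited the lower members numbered 23 without the first 72 h library and 2 without the second 48 h library, when SEL1L too lost its call.

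Genes of mitochondrial protein synthesis and respiration had more members lower than higher at 72 h. Over all genes 22.0% were lower and 4.96% higher as deposited, and 19.4% lower and 20.5% higher after scaling. Of 77 mitochondrial ribosomal proteins, 48 (62.34%) were lower and 0 higher as deposited, and 45 (58.44%) lower and 3 higher after scaling, with medians of -0.47 and -0.27. Of 62 nuclear-encoded subunits of the respiratory chain and ATP synthase, 35 (56.45%) were lower and 0 higher as deposited, and 37 (59.68%) lower and 5 higher after scaling, with medians of -0.43 and -0.22. The size of these counts depends on single libraries. As deposited, the mitochondrial ribosomal count was 10 without the second 48 h library, 15 without the first and 73 without the first 72 h library, and the respiratory count was 8, 12 and 57. After scaling, leaving out a 48 h or 72 h library gave 33 to 49 and 28 to 38.

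MRPL21, a protein of the large mitochondrial ribosomal subunit, went from 98.93 and 99.57 TPM to 51.11 and 43.47 TPM (-1.06 ± 0.16, scaled -0.85). MRPS23, of the small subunit, went from 37.74 and 41.73 TPM to 27.07 and 16.55 TPM (-0.87 ± 0.16, scaled -0.67). MRPL42 and MRPL48 changed by -0.88 each as deposited and by -0.67 each after scaling. All 4 had both 72 h libraries below both 48 h libraries.

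COX7C, a small subunit of cytochrome c oxidase, stood apart from the other respiratory genes. It fell from 168.20 and 170.30 TPM to 36.17 and 26.59 TPM (-2.41 ± 0.16, adjusted p = 2.12e-45, scaled -2.20). The gene lies at chr5:86617904-86620962 on the plus strand. Processed copies of COX7C exist elsewhere in the genome and could share its reads, so its level is uncertain. NDUFA9, a subunit of complex I, had the next largest change, from 143.66 and 150.00 TPM to 92.60 and 61.66 TPM (-0.95 ± 0.16, scaled -0.74). NDUFB6 of complex I and UQCRQ of complex III changed by -0.81 and -0.84 as deposited and by -0.61 and -0.62 after scaling. COX6B2, the testis form of another cytochrome c oxidase subunit and not on the list, rose over the same interval, as given below.

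Cytosolic ribosomal proteins shifted less and with the scale. Over all genes 22.0% were lower as deposited and 19.4% after scaling. Of 77, 21 (27.27%) were lower as deposited and 33 (42.86%) after scaling, with 0 and 4 higher and medians of -0.33 and -0.11. No member was called lower without the second 48 h library as deposited, and 74 were without the first 72 h library. After scaling the range was 20 to 40, with RPS29 lost without the second 48 h or the second 72 h library. RPS19 had the smallest p, at 3372.32 and 3646.59 TPM and then 2493.92 and 1753.00 TPM (-0.75 ± 0.19, scaled -0.53). RPS29 and RPLP2 changed by -0.59 and -0.58 as deposited and by -0.37 and -0.36 after scaling. These genes have many processed copies and their levels are uncertain for that reason.

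Glycolysis and hypoxia genes had more members lower than higher. Of 34 tested, 17 (50%) were lower on each scale, with 1 higher as deposited and 3 after scaling. The shares of all genes lower were 22.0% as deposited and 19.4% after scaling. SLC2A1, the main glucose carrier GLUT1, fell from 242.28 and 244.96 TPM to 94.13 and 70.53 TPM (-1.57 ± 0.17, adjusted p = 1.56e-18, scaled -1.36). CA9, a carbonic anhydrase induced by hypoxia, fell from 3.02 and 3.67 TPM to 2.08 and 0.87 TPM (-0.85 ± 0.17, scaled -0.73). VEGFA, the vascular growth factor, which is also on the ATF4 list, fell from 31.16 and 36.95 TPM to 24.78 and 18.07 TPM (-0.66 ± 0.16, scaled -0.45). ADM, the hypoxia-induced peptide adrenomedullin, rose from 2.19 and 1.35 TPM to 4.53 and 2.66 TPM (0.72 ± 0.17, scaled 0.86). As deposited, VEGFA and ADM lost their calls without the second 48 h library and ADM also without the first 72 h library. CA9 lost its call without the second 72 h library on both scales and without the second 48 h library after scaling. The lower members numbered 2 without the second 48 h library and 8 without the first as deposited, and 13 to 18 after scaling with a library left out.

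Cell cycle genes had more members lower than higher, as all genes did as deposited (22.0% lower and 4.96% higher). After scaling 19.4% of all genes were lower and 20.5% higher. Of 52 S-phase genes, 18 (34.62%) were lower and 0 higher as deposited, and 15 (28.85%) lower and 4 higher after scaling. Of 51 G2/M genes, 15 (29.41%) were lower and 0 higher as deposited, and 14 (27.45%) lower and 7 higher after scaling. Their medians were -0.31 and -0.27 as deposited and -0.11 and -0.07 after scaling. PCNA, the sliding clamp of DNA polymerase, fell from 138.44 and 140.78 TPM to 98.81 and 71.13 TPM (-0.73 ± 0.16, scaled -0.52). MAD2L1, a spindle checkpoint protein, fell from 28.04 and 32.61 TPM to 16.47 and 12.71 TPM (-1.01 ± 0.16, scaled -0.81). CKS1B, a partner of cyclin-dependent kinases, fell from 91.76 and 92.02 TPM to 54.12 and 41.82 TPM (-0.94 ± 0.16, scaled -0.73). As deposited the 2 counts were 41 and 40 without the first 72 h library and 3 each without the second 48 h library, and after scaling they were 10 to 16 and 9 to 14.

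Of 7 inhibitors of cyclin-dependent kinases tested, 1 (14.29%) was higher and 2 (28.57%) lower as deposited, and 2 (28.57%) of each after scaling. Among all genes tested 4.96% were higher and 22.0% lower as deposited, and 20.5% and 19.4% after scaling. CDKN2A, which encodes p16 and ARF, went from 37.86 and 43.11 TPM to 55.45 and 52.94 TPM (0.41 ± 0.16, adjusted p = 0.0388, scaled 0.62). That call as deposited was lost without any one library other than those at 72 h, and held after scaling. Its neighbour CDKN2B was called after scaling only (0.18 as deposited, adjusted p = 0.427, and 0.38 with adjusted p = 0.0103 after scaling). Without the first 72 h library CDKN2B was at -0.0091 as deposited. CDKN2D and CDKN1C were lower at 72 h, at -0.73 and -0.62 as deposited and at -0.55 and -0.43 after scaling, and the call of CDKN1C was lost without the second 48 h library on both scales and without the first 72 h library after scaling.

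**Figure D3:**
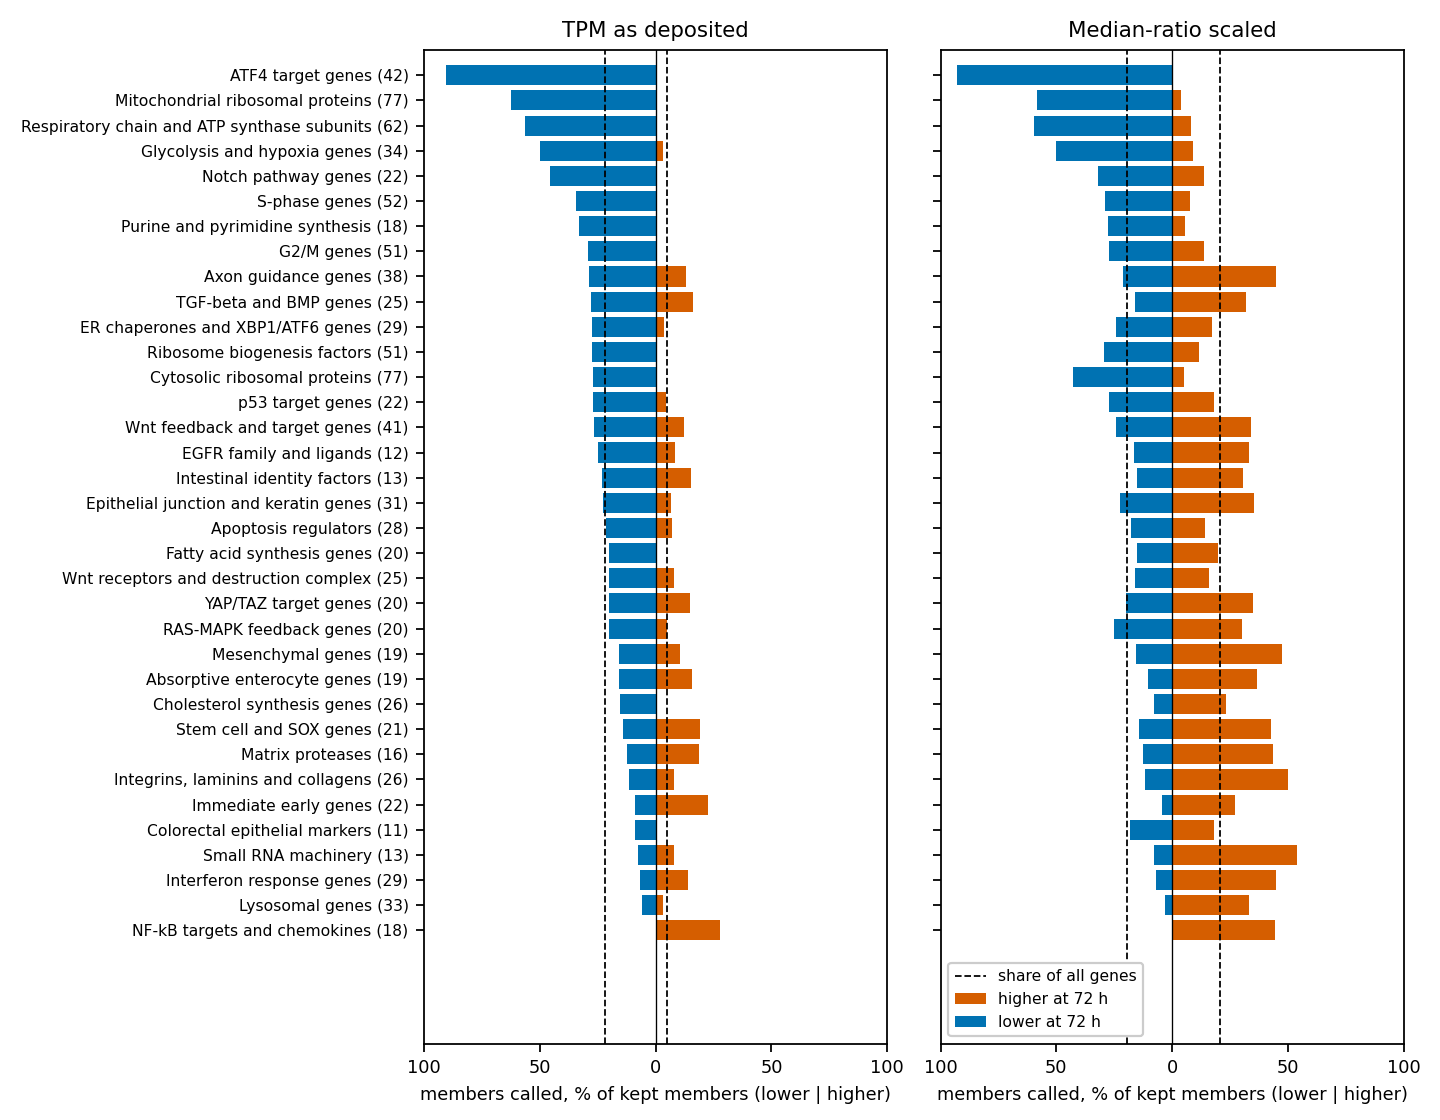
Share of the tested members of each gene list with 10 or more of them (y axis, with the number tested) called higher (orange, to the right) or lower (blue, to the left) at 72 h than at 48 h, in percent of members (x axis), as deposited (first panel) and after median-ratio scaling (second panel). Dashed lines mark the shares over all genes, 4.96% higher and 22.0% lower as deposited and 20.5% and 19.4% after scaling, and the ATF4 list has the longest bar to the left in both panels.

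The 15 largest falls and the 15 largest rises were chosen among genes called on both scales, with a mean of 5 TPM or more at the higher time and no overlap between the libraries. All 30 were past 2-fold on the log2(TPM + 1) scale as deposited. All 30 kept their direction and call in the 26 alternatives that set no fold minimum. The falls were led by TRIB3, CST7 and COX7C and held DDIT4, FGF21 and GDF15 of the ATF4 list.

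CST7, a cysteine protease inhibitor known from immune cells, fell from 32.83 and 29.97 TPM to 4.53 and 3.06 TPM (-2.77 ± 0.16, adjusted p = 2.17e-63, scaled -2.59). The 72 h mean was 8.27-fold lower, the largest fold of the 30 on plain TPM. YES1, a kinase of the SRC family, fell from 24.51 and 22.34 TPM to 6.39 and 4.84 TPM (-1.89 ± 0.16, scaled -1.71). SRC itself and CSK, the kinase that inhibits the family, were at -0.47 and -0.48 as deposited (scaled -0.28 and -0.27), and on both scales neither call held without the second 72 h library or either 48 h library. FYN was not called (-0.31, adjusted p = 0.138). S100P, a calcium-binding protein often high in gastrointestinal cancers, fell from 77.12 and 92.60 TPM to 24.63 and 20.23 TPM (-1.87 ± 0.16, scaled -1.67). FUT1, the fucosyltransferase that makes the H antigen, fell from 26.46 and 25.50 TPM to 7.29 and 6.14 TPM (-1.81 ± 0.16, scaled -1.62). SLPI, a secreted protease inhibitor of mucosal surfaces, fell from 14.37 and 12.44 TPM to 3.25 and 3.23 TPM (-1.76 ± 0.16, scaled -1.58).

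CCNB1IP1, a ubiquitin ligase that acts on cyclin B, fell from 48.63 and 52.87 TPM to 16.75 and 12.52 TPM (-1.74 ± 0.16, scaled -1.54). SPNS3, of the spinster family of transporters, fell from 9.54 and 9.84 TPM to 2.38 and 1.64 TPM (-1.84 ± 0.16, scaled -1.68). MEF2B, a transcription factor, stood at 15.99 and 18.03 TPM and then at 1.87 and 3.82 TPM (-2.27 ± 0.16, scaled -2.09). MEF2B shares sequence with the readthrough gene BORCS8-MEF2B, so its level is uncertain. CALCB, a calcitonin gene-related peptide, stood at 15.51 and 14.04 TPM and then at 3.12 and 1.83 TPM (-2.21 ± 0.16, scaled -2.05). CALCB overlaps CALCA on the opposite strand in the annotation, and no source here gives the strand setting of the counting, so it is uncertain as well.

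The largest rise was that of FDCSP, a small secreted protein of follicular dendritic cells and gum epithelium. It went from 5.06 and 4.23 TPM to 25.17 and 17.72 TPM (1.98 ± 0.17, adjusted p = 2.09e-29, scaled 2.17), a 4.62-fold higher mean. FDCSP belongs to the secretory calcium-binding phosphoprotein genes, a family that holds the caseins, the salivary histatins and enamel proteins, many of them side by side on chromosome 4. HTN3, a salivary histatin, rose from 1.73 and 1.66 TPM to 9.24 and 6.03 TPM (1.65 ± 0.17, scaled 1.82). CSN1S1, a casein, rose from 1.20 and 0.77 TPM to 3.75 and 2.86 TPM (1.12 ± 0.18, scaled 1.26). AMBN, which encodes the enamel protein ameloblastin, rose from 5.18 and 5.67 TPM to 10.82 and 8.86 TPM (0.75 ± 0.17, scaled 0.94). In GRCh38 the genes lie at chr4:69931081-69946574 (CSN1S1), chr4:70028413-70036538 (HTN3), chr4:70226071-70235252 (FDCSP) and chr4:70592256-70607288 (AMBN), all on the plus strand. Of 15 genes on the list 7 passed the filter, only 4 of them with 1 TPM or more in both 48 h libraries, so no count of calls is given for it. At 0 h FDCSP stood at 1.21 and 1.39 TPM.

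COX6B2 rose from 4.27 and 4.24 TPM to 18.50 and 17.14 TPM (1.84 ± 0.16, adjusted p = 3.11e-26, scaled 2.03). ZPLD1, a membrane protein with a zona pellucida domain, rose from 1.65 and 2.09 TPM to 9.26 and 7.25 TPM (1.68 ± 0.17, scaled 1.86). COL17A1, a collagen of the hemidesmosomes that anchor epithelia, rose from 1.34 and 2.12 TPM to 8.19 and 5.35 TPM (1.50 ± 0.17, scaled 1.66). CEACAM6, an adhesion protein often raised in colorectal cancer, rose from 2.00 and 2.19 TPM to 7.86 and 6.73 TPM (1.42 ± 0.17, scaled 1.59). Its neighbour and relative CEACAM5, which encodes carcinoembryonic antigen, rose from 1.25 and 0.97 TPM to 4.59 and 3.36 TPM (1.23 ± 0.18, scaled 1.38), and reads could be shared between these similar genes. CEACAM5 was under 1 TPM in every library at 0 and 24 h. It thus passed the filter only through its 72 h levels, and its rise is in part fixed by that choice.

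CALB1, the calcium buffer calbindin, rose from 2.42 and 2.11 TPM to 7.22 and 7.80 TPM (1.38 ± 0.17, scaled 1.56). ECM1, an extracellular matrix protein, rose from 3.62 and 2.54 TPM to 9.70 and 8.55 TPM (1.32 ± 0.17, scaled 1.50). LMNTD1, a protein with a lamin tail domain, rose from 12.72 and 12.18 TPM to 36.31 and 28.18 TPM (1.30 ± 0.16, scaled 1.50). TM4SF4, a tetraspan membrane protein, rose from 5.02 and 3.61 TPM to 12.72 and 10.51 TPM (1.25 ± 0.17, scaled 1.44). NTS, the gut peptide neurotensin, rose from 2.89 and 3.21 TPM to 10.06 and 7.30 TPM (1.24 ± 0.17, scaled 1.42). HOXB8, a homeobox factor, rose from 16.10 and 15.36 TPM to 42.20 and 32.79 TPM (1.19 ± 0.16, scaled 1.40). HOXB8 overlaps HOXB7 on the same strand in the annotation.

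CD68, a lysosomal protein used as a macrophage marker, rose from 9.39 and 5.27 TPM to 21.79 and 19.25 TPM (1.41 ± 0.16, scaled 1.61). The other 11 of 12 immune markers, among them PTPRC, CD14 and CD3E, were under 1 TPM in all 8 libraries. The summed level of the 12 was 11.03 and 6.76 TPM at 48 h and 23.23 and 21.13 TPM at 72 h. All 7 endothelial markers were under 1 TPM throughout. Of 8 fibroblast markers 3 passed the filter, and their summed level went from 28.61 and 29.5 TPM to 52.37 and 36.57 TPM, mostly LUM, at 23.73 and 25.24 TPM and then at 45.01 and 29.64 TPM. The part of such cells in any result was not tested. The 11 colorectal epithelial markers were all found, with sums of 4194 and 4234 TPM at 48 h and 4237 and 3154 TPM at 72 h. A lower level in these bulk libraries cannot be told apart as fewer cells of a kind or less RNA per cell.

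**Figure D4:**
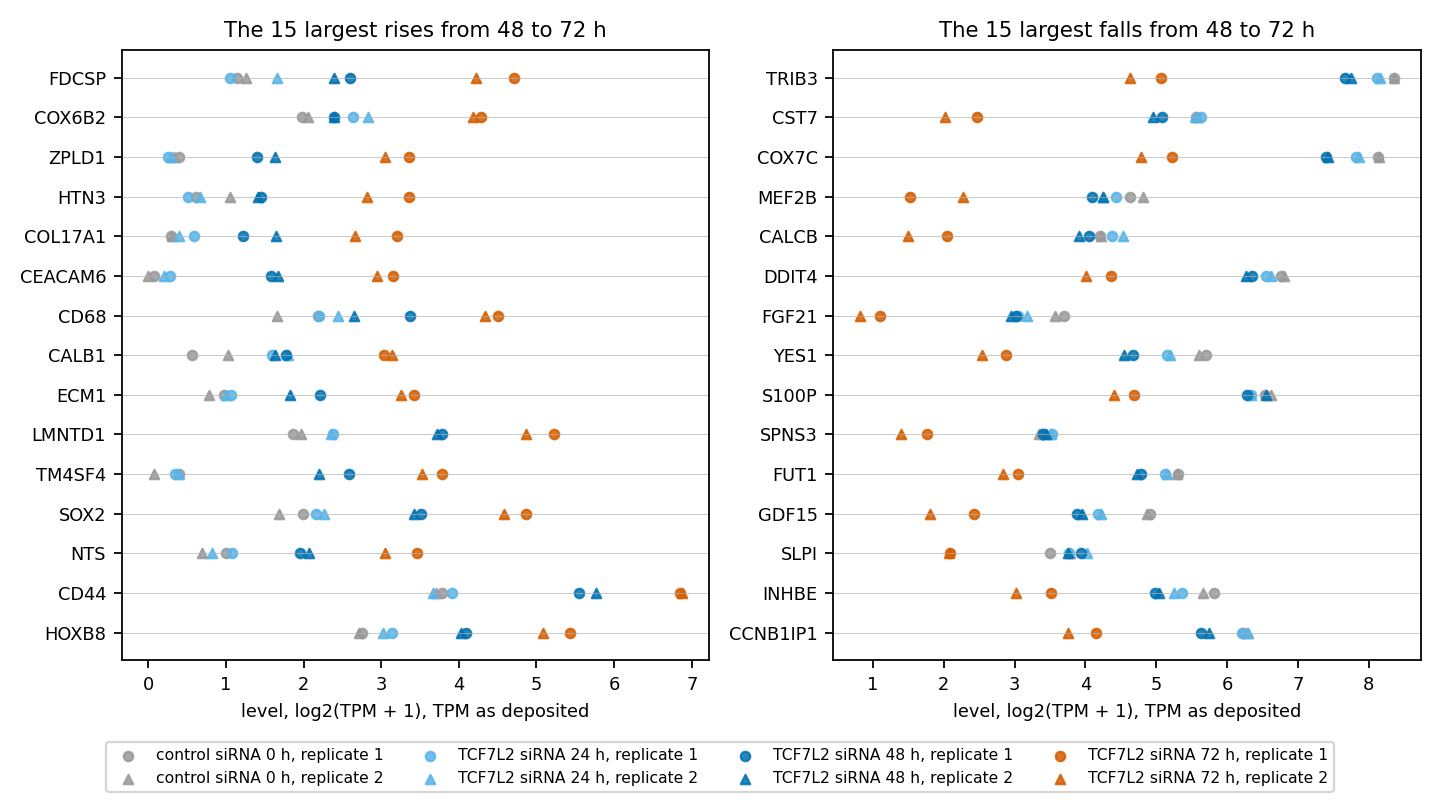
Level in every library (x axis, log2(TPM + 1), TPM as deposited) of the genes with the 15 largest rises (first panel) and the 15 largest falls (second panel) from 48 to 72 h, with circles for replicate 1, triangles for replicate 2 and 1 colour per time. In every row both orange 72 h points lie clear of both dark blue 48 h points, from TRIB3 falling below 33 TPM to CD44 rising to 113.87 TPM and more.

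Stem cell and SOX genes included 2 of the largest rises. SOX2, a factor of embryonic and foregut stem cells, rose from 10.40 and 9.74 TPM to 28.10 and 22.89 TPM (1.25 ± 0.16, scaled 1.45). CD44, given above, is the other. SOX5 rose from 2.36 and 3.19 TPM to 6.82 and 4.77 TPM (0.84 ± 0.17, scaled 1.01). The call of SOX5 as deposited was lost without the first 72 h library. LGR6, a receptor for R-spondins, fell from 5.02 and 4.51 TPM to 2.75 and 1.69 TPM (-0.86 ± 0.17, scaled -0.71). Of 21 members tested 4 were higher and 3 lower as deposited (19.05% and 14.29%). After scaling 9 were higher and 3 lower (42.86% and 14.29%). Over all genes 4.96% were higher and 22.0% lower as deposited, and 20.5% and 19.4% after scaling.

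Genes of intestinal differentiation went in different directions. Of 19 enterocyte genes tested, 3 (15.79%) were higher and 3 (15.79%) lower as deposited, and 7 (36.84%) higher and 2 (10.53%) lower after scaling. Among all genes tested 4.96% were higher and 22.0% lower as deposited, and 20.5% and 19.4% after scaling. CEACAM6 and CEACAM5, given above, are on this list and rose (1.42 and 1.23, scaled 1.59 and 1.38). CEACAM5 passed the filter only through its 72 h levels and is high there by that choice. As deposited 6 members of the list were lower without the first 72 h library and 7 higher without the second. ALPP, an alkaline phosphatase, fell from 5.23 and 6.67 TPM to 1.74 and 1.53 TPM (-1.39 ± 0.17, scaled -1.24), and near-identical phosphatase genes could share its reads. ESPN, a microvillus bundling protein, fell from 59.07 and 59.90 TPM to 39.92 and 31.29 TPM (-0.73 ± 0.16, scaled -0.53). TFF3, a goblet cell peptide and 1 of only 5 secretory lineage genes tested, fell from 27.65 and 34.00 TPM to 10.50 and 11.12 TPM (-1.42 ± 0.16, scaled -1.22). Of these 5 genes, 1 (20%) was higher and 3 (60%) lower as deposited, and 2 (40%) of each after scaling. The Paneth cell genes DEFA5 and LYZ went in opposite directions. DEFA5 went from 137.13 and 127.82 TPM to 122.28 and 73.16 TPM (-0.48 ± 0.16, adjusted p = 0.0167). After scaling DEFA5 was not called (-0.27, adjusted p = 0.0595). LYZ, the lysozyme of Paneth cells, rose from 4.32 and 4.84 TPM to 7.94 and 7.22 TPM (0.62 ± 0.17, scaled 0.81), a call lost as deposited without the first 48 h library.

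Among 13 intestinal identity factors 2 (15.38%) were higher and 3 (23.08%) lower as deposited, and 4 (30.77%) higher and 2 (15.38%) lower after scaling. For all genes these shares were 4.96% and 22.0% as deposited and 20.5% and 19.4% after scaling. CDX2, the master factor of intestinal fate, fell from 9.56 and 9.25 TPM to 6.60 and 4.42 TPM (-0.70 ± 0.16, scaled -0.52). The 3 forkhead factors FOXA1, FOXA2 and FOXA3 did not move together. FOXA1 rose from 2.17 and 2.49 TPM to 6.11 and 4.53 TPM (0.91 ± 0.17, scaled 1.08). FOXA2 was higher by 0.43 (adjusted p = 0.0367, scaled 0.61) and FOXA3 was lower by -0.80 (adjusted p = 2.05e-05, scaled -0.62). The call of FOXA2 as deposited was lost without any one library but the second 72 h library, and held after scaling.

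Junction and mesenchymal genes also split. Of 31 epithelial junction and keratin genes, 2 were higher and 7 lower as deposited (6.452% and 22.58%). After scaling 11 (35.48%) were higher and 7 (22.58%) lower. The shares as deposited were near those of all genes, 4.96% higher and 22.0% lower. For all genes the scaled shares were 20.5% higher and 19.4% lower. As deposited the lower members numbered 2 and 3 without the first and second 48 h library and 16 without the first 72 h library, and the higher ones 6 without the second 72 h library. After scaling with a library left out, 6 to 10 were higher and 4 to 7 lower. CLDN7 and CLDN1, claudins of tight junctions, fell from 122.98 and 133.47 TPM to 74.53 and 60.23 TPM and from 29.78 and 27.24 TPM to 16.43 and 13.54 TPM (-0.93 and -0.89, scaled -0.71 and -0.69). DSG3, a desmosomal cadherin of stratified epithelia, rose from 6.18 and 6.24 TPM to 11.82 and 9.03 TPM (0.65 ± 0.17, scaled 0.84). Of 19 mesenchymal genes 2 (10.53%) were higher and 3 (15.79%) lower as deposited, and 9 (47.37%) higher and 3 (15.79%) lower after scaling. Without the second 72 h library 6 were higher as deposited, and 5 to 8 were higher after scaling with a library left out. VIM, the intermediate filament vimentin, rose from 9.75 and 11.09 TPM to 26.91 and 21.46 TPM (1.14 ± 0.16, scaled 1.34). The mesenchymal factors PRRX1 and SNAI2 fell, PRRX1 from 6.72 and 5.45 TPM to 1.60 and 2.16 TPM (-1.30 ± 0.17, scaled -1.14) and SNAI2 from 3.30 and 3.57 TPM to 1.47 and 1.25 TPM (-0.91 ± 0.17, scaled -0.77). S100A4, a calcium-binding protein linked to motility, fell from 363.13 and 380.11 TPM to 254.31 and 182.37 TPM (-0.78 ± 0.17, scaled -0.57).

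Integrins, laminins and collagens depended on the scale for their balance. Of 26 tested, 2 were higher and 3 lower as deposited, and 13 (50%) higher and 3 lower after scaling, where 20.5% of all genes were higher. After scaling, leaving out a 48 h or 72 h library gave 11 to 15 higher. COL17A1, given above, rose the most. LAMB3, a laminin chain of the basement membrane, fell from 89.12 and 91.71 TPM to 58.82 and 41.27 TPM (-0.86 ± 0.16, scaled -0.65). COL4A2, a basement membrane collagen, fell from 18.31 and 19.40 TPM to 11.56 and 9.23 TPM (-0.81 ± 0.16, scaled -0.61).

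Notch pathway genes had members that were low at 72 h. Of the 22 tested, 21 had 1 TPM or more in both 48 h libraries and 17 in both 72 h libraries. A member that passed the filter only through its earlier levels is low at 72 h by that choice. The counts below therefore do not give a direction for this list. As deposited 10 of 22 (45.45%) were lower and 0 higher, and after scaling 7 (31.82%) were lower and 3 higher. The shares of all genes lower were 22.0% as deposited and 19.4% after scaling. HES5, a repressor induced by Notch, fell from 11.20 and 11.51 TPM to 2.93 and 3.12 TPM (-1.62 ± 0.16, adjusted p = 1.19e-20, scaled -1.44). HEYL, another Notch target, fell from 2.53 and 2.41 TPM to 0.58 and 0.70 TPM (-1.08 ± 0.17, scaled -0.97). The receptor NOTCH1 fell from 17.28 and 18.48 TPM to 10.45 and 8.99 TPM (-0.82 ± 0.16, scaled -0.62). As deposited the lower members numbered 3 without the second 48 h library, 6 without the first and 17 without the first 72 h library. After scaling with a library left out, 6 to 8 were lower and 0 to 3 higher.

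Axon guidance genes, many of which also act in epithelia, had members at both ends. Of 38 tested, 5 were higher and 11 lower as deposited (13.16% and 28.95%), and 17 higher and 8 lower after scaling (44.74% and 21.05%). Over all genes 4.96% were higher and 22.0% lower as deposited, and 20.5% and 19.4% after scaling. As deposited the lower members numbered 3 without either 48 h library and 15 without the first 72 h library, and the higher ones 15 without the second 72 h library. After scaling with a library left out, 14 to 16 were higher and 4 to 8 lower. UNC5B, a netrin receptor, fell from 11.78 and 12.46 TPM to 3.61 and 3.11 TPM (-1.59 ± 0.16, scaled -1.42). The semaphorins SEMA3C and SEMA7A rose, SEMA3C from 13.77 and 16.43 TPM to 32.05 and 23.09 TPM (0.81 ± 0.16, scaled 1.02) and SEMA7A from 3.08 and 3.49 TPM to 7.95 and 6.14 TPM (0.90 ± 0.17, scaled 1.08). Of the ligands of the EGF receptor, HBEGF and TGFA fell, by -1.14 and -0.91 (scaled -0.98 and -0.70), and EREG was higher by 0.42 (adjusted p = 0.0343, scaled 0.63). The call of EREG as deposited was lost without any one library other than those at 72 h.

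NF-kB targets and interferon response genes had members that were low at 48 h. Of 18 NF-kB members tested, 15 had 1 TPM or more in both 48 h libraries and 18 in both 72 h libraries. Of 29 interferon members these numbers were 24 and 27. A member that passed the filter through its 72 h level is high there by that choice. The counts below therefore do not give a direction for either list. Over all genes 4.96% were higher as deposited and 20.5% after scaling. Of 18 NF-kB targets and chemokines, 5 (27.78%) were higher and 0 lower as deposited, and 8 (44.44%) higher and 0 lower after scaling. As deposited the higher members numbered 2 without the second 48 h library, and without the first 72 h library 2 were higher and 3 lower. After scaling with a library left out, 6 to 8 were higher and 0 lower. Their levels were low. IL32, a cytokine, rose from 0.64 and 0.80 TPM to 2.88 and 1.92 TPM (0.97 ± 0.18, scaled 1.09), and BIRC3, an inhibitor of apoptosis, from 4.86 and 4.51 TPM to 8.53 and 6.45 TPM (0.57 ± 0.17, scaled 0.75). Of 29 interferon response genes, 4 were higher and 2 lower as deposited, and 13 (44.83%) higher and 2 lower after scaling. Without the first 72 h library that order turned as deposited, to 3 higher and 7 lower, and 1 was higher and 1 lower without the first 48 h library. After scaling with a library left out, 9 to 11 were higher and 1 or 2 lower. IRF9, a subunit of the interferon-activated factor ISGF3, rose from 5.44 and 4.83 TPM to 8.77 and 8.20 TPM (0.63 ± 0.16, scaled 0.82). BST2 and IRF1 were the 2 lower members, at -0.65 and -0.53 (scaled -0.46 and -0.33). As deposited the calls of BIRC3, IRF9, BST2 and IRF1 were lost without the second 48 h library, and that of IRF1 also after scaling.

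The change of a gene in the last 24 h was also set against its change in the 24 h before, by a test of the difference between the intervals in the same model. The 48 h libraries enter both intervals, with opposite signs. As deposited, 429 genes (3.61%) differed, 55 (0.462%) with a more positive and 374 (3.14%) with a more negative last interval. After scaling 1481 (12.5%) differed, 710 (5.97%) positive and 771 (6.48%) negative. Both scales called 340 genes with the same sign. The median difference was -0.264 as deposited and -0.001 after scaling.

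Several of the leading falls were larger after 48 h than before it. The leading falls and rises were picked by their change from 48 to 72 h, which is 1 term of the difference between the intervals. That choice itself favours a difference in the same direction. TRIB3 stood at 277.29 and 284.66 TPM at 24 h, 201.19 and 214.60 TPM at 48 h and 32.40 and 23.65 TPM at 72 h, and the difference between the intervals was -2.43 ± 0.29 (adjusted p = 3.83e-14, scaled -2.13). DDIT4 stood at 92.85 and 97.78 TPM at 24 h, and FGF21 at 7.28 and 8.05 TPM, neither was called from 24 to 48 h as deposited (adjusted p = 0.43 and 0.831), and their interval differences were -1.85 and -1.90 (scaled -1.55 and -1.70). CST7, COX7C and S100P had differences of -2.20, -1.98 and -1.95 (scaled -1.94, -1.68 and -1.66). After scaling, TRIB3 and DDIT4 were already lower from 24 to 48 h, at -0.52 (adjusted p = 3.28e-04) and -0.37 (adjusted p = 0.00306). S100P was not called between 24 and 48 h on either scale (0.08, adjusted p = 0.907, and -0.01 after scaling).

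Several of the rises began before 48 h. CD44 stood at 14.07 and 11.66 TPM at 24 h and had already risen by 48 h (1.86, adjusted p = 9.69e-28), and its 2 intervals did not differ by the test (-0.66 ± 0.28, adjusted p = 0.15, scaled -0.36 with adjusted p = 0.32). TM4SF4, SOX2 and LMNTD1 had also risen from 24 to 48 h, by 2.02, 1.26 and 1.38, and their interval differences were not called. COX6B2 and CALB1 were different. COX6B2 stood at 5.20 and 6.14 TPM at 24 h and was not called from 24 to 48 h as deposited (-0.34, adjusted p = 0.286) and was lower after scaling (-0.41, adjusted p = 0.0386), and its interval difference was 2.18 ± 0.28 (adjusted p = 2.08e-11, scaled 2.44). CALB1 stood at 2.03 and 2.48 TPM at 24 h, with an interval difference of 1.38 ± 0.29 (adjusted p = 4.63e-04, scaled 1.61), a call lost without the second 48 h library on both scales. LEF1 rose in both intervals, by 0.75 and 0.74 as deposited (difference -0.01 ± 0.28) and by 0.66 and 0.95 after scaling (difference 0.29, adjusted p = 0.442).

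**Figure D5:**
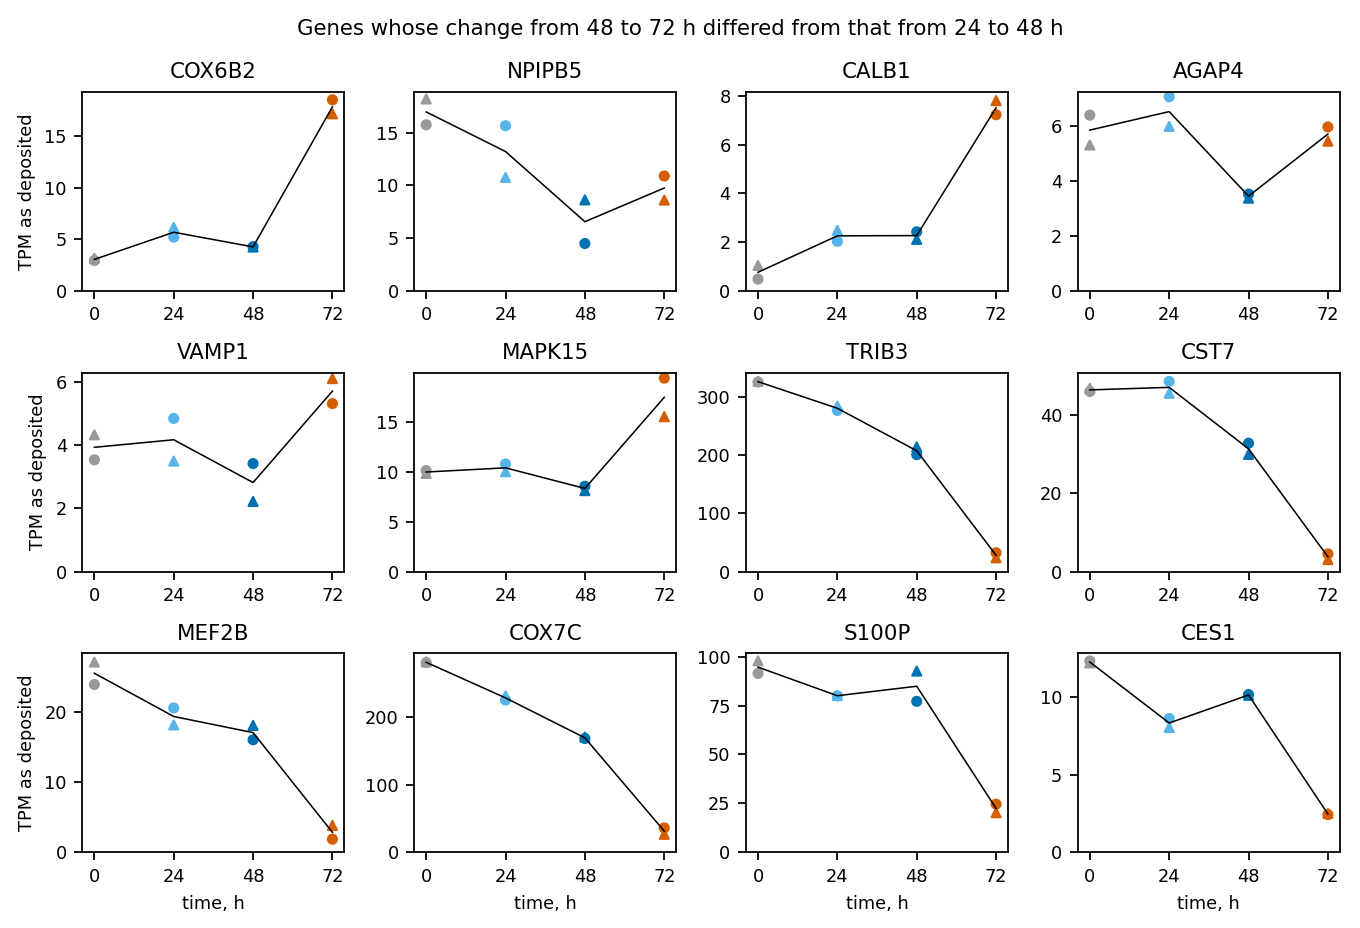
TPM as deposited (y axis, each panel from 0) at 0, 24, 48 and 72 h (x axis) for the 12 genes with the 6 largest positive and the 6 largest negative differences between the intervals, with circles for replicate 1, triangles for replicate 2 and lines through the means; the 0 h libraries carry the control siRNA. COX6B2 stays at or under 6.14 TPM until 48 h and is above 17 TPM at 72 h, and TRIB3 is above 200 TPM until 48 h and under 33 TPM at 72 h.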

How the data were processed

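Per the labels' protocols, total RNA of SW480 cells was depleted of ribosomal RNA and sequenced. The authors deposited 1 table of TPM for 18656 gene symbols; per the submitters' processing notes FastQC, Trimmomatic, STAR, Picard, SAMtools and RSEM were used with build hg19. No version, annotation or strand setting is named in these sources. Of the symbols, 18409 matched the reference gene names.

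Genes that reached 1 TPM in 2 or more of 8 libraries were fitted on log2(TPM + 1) with limma 3.58.1 (R 4.3.3), 4 groups of 2, with a mean-variance trend and 4 residual degrees of freedom. As deposited, the moderation gave each gene the SE of the trend alone (median 0.162), so libraries that lay apart gave no larger SE. After median-ratio scaling the median SE was 0.0913, on 5.41 prior degrees of freedom. A single value tested by exact permutation of 2 against 2 cannot go below p = 0.333, so none was.

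The members and the 47 gene lists were chosen with earlier results of these data known. Named were the 15 largest rises and falls (called on both scales, 5 TPM or more, no overlap), the TCF/LEF family, up to 4 members of each list discussed with the smallest p as deposited, and the 6 largest interval differences each way. Other members given with values were chosen after these were seen. Promoter stretches are RefSeq's. No member of the lists of histone and of mitochondrially encoded genes was analysed here, nor were most aminoacyl-tRNA synthetases. The fit was tested on simulated data.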

Additional observations from a re-analysis of the deposited data

Results flagged for a closer look

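For 12 genes the change from 48 to 72 h differed from the change from 24 to 48 h on both scales, by the test of the difference in the limma model. On both scales, 40 genes were called with a positive difference and a rise from 48 to 72 h, and 254 with a negative difference and a fall. These 12 have the largest of the 21 positive and 235 negative differences in genes called from 48 to 72 h, in either direction, with a mean of 5 TPM or more at 24, 48 or 72 h. The 2 intervals share the 48 h libraries. The positive differences were 2.18 for COX6B2, 1.50 for NPIPB5, 1.38 for CALB1, 1.35 for AGAP4, 1.27 for VAMP1 and 1.26 for MAPK15. After scaling they were 2.44, 1.77, 1.61, 1.59, 1.51 and 1.54. The negative differences were -2.43 for TRIB3, -2.20 for CST7, -2.10 for MEF2B, -1.98 for COX7C, -1.95 for S100P and -1.94 for CES1. After scaling they were -2.13, -1.94, -1.83, -1.68, -1.66 and -1.69.

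CES1, a carboxylesterase, stood at 8.61 and 8.03 TPM at 24 h, 10.15 and 10.10 TPM at 48 h and 2.43 and 2.50 TPM at 72 h. MAPK15, an atypical MAP kinase, stood at 10.81 and 10.03 TPM, then 8.57 and 8.13 TPM, then 19.43 and 15.56 TPM. VAMP1, a protein of vesicle fusion, stood at 4.85 and 3.50 TPM, then 3.42 and 2.22 TPM, then 5.32 and 6.11 TPM. NPIPB5 and AGAP4 belong to families of near-identical copies, so their levels are uncertain. NPIPB5 stood at 4.49 and 8.63 TPM at 48 h and at 10.90 and 8.61 TPM at 72 h, with libraries that overlap.

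TRIB3, CES1 and COX6B2 kept their call in all 27 alternatives that gave a value. The other 9 lost it with no filter on low values. The calls of AGAP4 and MAPK15 were also lost without either 48 h library, those of CALB1 and VAMP1 without the second and that of NPIPB5 without the first. After scaling, those of CALB1 and MEF2B were lost without either 48 h library, that of VAMP1 without the second and that of NPIPB5 without the first. VAMP1 lost its call without the first 24 h library too. Over all alternatives the difference ran from 0.69 to 2.57 for NPIPB5 and from 0.69 to 1.98 for VAMP1.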

How the results depend on the processing

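The counts of called genes were the least stable values, and the 2 libraries per group and the unknown depth limit them all. The numbers called, higher, lower and differing between intervals were 3211, 590, 2621 and 429 as deposited. Higher and interval calls were 2439 and 1481 after median-ratio scaling and 2286 and 1401 after quantile normalization. With equal sums over the listed genes the called, higher and interval counts were 4846, 2868 and 1412. With no filter the 4 counts were 1599, 377, 1222 and 10. At a minimum of 5 TPM 349 were higher. A fit to the 4 libraries compared called 957, 237 higher and 720 lower. At an adjusted p of 0.01 the 4 counts were 1885, 349, 1536 and 184, past 2-fold 184, 44, 140 and 250, and past 2-fold after scaling 151, 83, 68 and 158, an alternative chosen after seeing the data. Leaving out 1 library gave 955 to 6856 called, 223 to 1558 higher, 732 to 6426 lower and 51 to 5886 interval calls, and with scaling 3177 to 4357, 1628 to 2136, 1549 to 2221 and 154 to 1920. The scaled higher, lower and interval counts were 1760, 1872 and 1226 without the second 72 h library and 1783, 1689 and 315 without the first 48 h library, and those without a 48 h library with scaling were added after seeing the data. The causes were not tested.

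Same-numbered replicates did not deviate together across genes (r from -0.087 to 0.107 between times). Whether they shared a culture or a batch cannot be told from these values. With a replicate block the counts were 3088, 571, 2517 and 395, and with block and scaling 2397 higher and 1318 interval calls.

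Over 143 named genes and 28 alternatives, 3554 values kept direction and call, 380 lost the call, 21 gained it and 28 reversed. The reversed values are of genes not called as deposited, of which CDKN2B was called after scaling. TCF7 was at 0.0077 with scaling (also with the block or the fold minimum), 0.0479 with equal sums, and, scaled, 0.1915 without the first 72 h and 0.0456 without the first 48 h library. TCF7L2 was at 0.0143 with equal sums and, scaled, at 0.0395 and 0.0968 without the same libraries. CDKN2B ran from -0.0091 without the first to 0.3637 without the second 72 h library. With scaling (also with the block or the fold minimum) VLDLR was at 0.0271 and JDP2 at 0.1079, with equal sums at 0.0545 and 0.1502, and JDP2 at 0.1061 with quantile normalization. Without the second 72 h library VLDLR and JDP2 were at 0.0124 and 0.0005, and without the first at -0.2109 and -0.1845. With scaling and a library left out they ran from -0.0311 to 0.0889 and from 0.0241 to 0.1835, with 0.0212 and 0.0281 for VLDLR without the first and second 72 h library and 0.0663 and 0.1553 for JDP2 without the first and second 48 h library.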

Other observations

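Some of the gene lists were not described above. Over all genes 4.96% were higher and 22.0% lower as deposited, and 20.5% and 19.4% after scaling. Of 33 lysosomal genes 1 was higher and 2 lower as deposited, and 11 (33.33%) higher and 1 lower after scaling. Of 13 small RNA machinery genes 1 was higher and 1 lower as deposited, and 7 (53.85%) higher and 1 lower after scaling. Of 26 cholesterol synthesis genes 0 were higher and 4 lower as deposited, and 6 higher and 2 lower after scaling. Of 18 purine and pyrimidine synthesis genes 6 (33.33%) were lower as deposited and 5 (27.78%) after scaling, with 0 and 1 higher. Of 51 ribosome biogenesis factors 14 (27.45%) were lower as deposited and 15 (29.41%) after scaling, with 0 and 6 higher. Of 22 p53 target genes 1 was higher and 6 lower as deposited, and 4 higher and 6 lower after scaling. Of 20 YAP and TAZ target genes 3 were higher and 4 lower as deposited, and 7 higher and 4 lower after scaling. Of 25 genes of the TGF-beta and BMP pathways 4 were higher and 7 lower as deposited, and 8 higher and 4 lower after scaling.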
